A study of Mus musculus with 6 samples.

Results

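The genes described here encode proteoglycans of the extracellular matrix and the adhesive glycoproteins fibronectin and tenascin C. They are decorin (Dcn), lumican (Lum), biglycan (Bgn), fibromodulin (Fmod), osteoglycin (Ogn), prolargin (Prelp), asporin (Aspn), versican (Vcan), fibronectin (Fn1) and tenascin C (Tnc). The 10 genes were chosen by name, as a family, and were 10 of the 49568 gene symbols in the table of counts. Poly(A) RNA was sequenced from the whole lungs of 3 TNF-Tg mice and 3 WT littermates, with 1 library per mouse. All 6 mice were female, of the C57BL/6 strain and 4 months old. The TNF-Tg mice carried a human TNF-α transgene, a model of inflammatory arthritis with pulmonary hypertension. The WT mice did not carry the transgene, and neither group received a treatment according to the labels. The promoter of the transgene is not given in the sources used here.

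Decorin, biglycan, asporin, lumican, fibromodulin, prolargin and osteoglycin are small leucine-rich proteoglycans, or SLRPs, secreted proteins with a curved core of leucine-rich repeats. Most of them bind collagen fibrils and set how thick the fibrils grow and how they are spaced, and several carry chondroitin, dermatan or keratan sulfate chains. Versican is a large chondroitin sulfate proteoglycan that binds hyaluronan and fills the loose, hydrated matrix around vessels and airways. Fibronectin is assembled into fibrils by integrins and links cells to collagen. Tenascin C is a hexameric glycoprotein of remodelling tissue that modulates adhesion to fibronectin. Free biglycan, versican and tenascin C fragments are known as ligands of Toll-like receptors.

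The libraries held between 25396923 and 32529408 counts, so that 3 counts, taken as the lowest detectable level, stood at 0.0922 to 0.118 CPM, counts scaled to library size. Lung markers were high in every lung, with surfactant protein C (Sftpc) at no less than 287103 normalized counts. Normalized counts are counts adjusted to the same TMM-scaled depth, the average of the 6 lungs. The mouse Tnf gene had 106, 213 and 405 counts in the TNF-Tg lungs and 16, 14 and 35 in the WT lungs, which does not check the human transgene. A pair of libraries stood apart. In WT 1, 8 markers of squamous epithelium summed to 106655 normalized counts against 54.8 to 101 in the other lungs, and 8 markers of skeletal muscle to 59148 against 471 to 1460. In TNF-Tg 1, the ribosomal-repeat gene Gm42418 took 5.22% of the counts against 0.0774 to 0.274% elsewhere. Calls of the 10 genes that changed without TNF-Tg 1 or WT 1 are given both ways.

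Several of the genes are neighbours in the genome. On mouse build GRCm38, Prelp (chr1:133910304-133921414, minus strand) and Fmod (chr1:134037254-134048277, plus strand) were separated by 115840 bases with 0 coding genes between them. Aspn (chr13:49544443-49567565, plus strand) and Ogn (chr13:49608046-49624501, plus strand) were separated by 40481 bases, with 1 coding gene, the SLRP osteomodulin (Omd), between them. Dcn (chr10:97479609-97518143) and Lum (chr10:97565128-97572703) were separated by 46985 bases with 0 coding genes between them, both on the plus strand. The first 2 of these pairs hold genes that moved in opposite directions in the TNF-Tg lungs, so the 250 bases upstream of the start of each of these 4 genes are shown, 5′ to 3′ on the gene's own strand, from RefSeq on GRCm38.p6. Capitals mark matches to the searched motifs, on either strand.
Prelp: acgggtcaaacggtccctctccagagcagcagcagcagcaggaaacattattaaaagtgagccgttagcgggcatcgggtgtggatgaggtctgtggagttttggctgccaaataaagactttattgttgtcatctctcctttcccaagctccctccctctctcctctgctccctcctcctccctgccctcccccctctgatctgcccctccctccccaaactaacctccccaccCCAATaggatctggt
Fmod: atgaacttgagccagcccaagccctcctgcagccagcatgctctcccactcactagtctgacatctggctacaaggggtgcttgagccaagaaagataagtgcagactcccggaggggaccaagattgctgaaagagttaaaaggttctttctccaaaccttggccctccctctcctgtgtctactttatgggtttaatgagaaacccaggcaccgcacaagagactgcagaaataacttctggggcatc
Aspn: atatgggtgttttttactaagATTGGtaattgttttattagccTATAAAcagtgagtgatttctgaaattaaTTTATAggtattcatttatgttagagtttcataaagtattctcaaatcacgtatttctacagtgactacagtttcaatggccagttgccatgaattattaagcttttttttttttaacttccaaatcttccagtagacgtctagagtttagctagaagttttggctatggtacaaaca
Ogn: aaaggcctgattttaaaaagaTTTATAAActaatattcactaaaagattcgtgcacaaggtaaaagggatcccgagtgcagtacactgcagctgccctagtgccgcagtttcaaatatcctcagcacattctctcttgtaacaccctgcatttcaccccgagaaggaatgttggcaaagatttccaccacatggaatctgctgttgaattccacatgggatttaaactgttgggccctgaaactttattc
They lie at chr1:133921402-133921651 (Prelp, minus strand), chr1:134037004-134037253 (Fmod), chr13:49544193-49544442 (Aspn) and chr13:49607765-49608014 (Ogn). Both strands were searched for 6 motifs, whose frequency was taken over 32851 RefSeq windows of the same length. The TATA motif TATAAA was present in 12.4% of the windows and the AP-1 motif TGANTCA in 6.75%. The CCAAT box was present in 33.8%, and the GC box GGGCGG in 32.7%. The SMAD motif GTCTAGAC was present in 0.167% and the NF-kB motif in 7.25%. The Prelp window held 1 CCAAT close to the start, and the Fmod window held no match. The Aspn window held 2 TATAAA and 1 CCAAT, all far from the start, and the Ogn window held 2 overlapping TATAAA on opposite strands. The windows also differed in base composition. G and C made up 55.6% of the Prelp window, 51.2% of the Fmod window, 42.0% of the Ogn window and 30.0% of the Aspn window, against a median of 52.4% over all windows. A matching window was found for 7 of the 10 genes.

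Aspn and Fmod rose in the TNF-Tg lungs, Prelp, Vcan, Tnc and Ogn fell, and Dcn, Lum, Bgn and Fn1 did not pass the test. Genes were tested with the quasi-likelihood method of edgeR, p-values were adjusted over 19199 genes by the Benjamini-Hochberg method, and a gene was called at an adjusted p below 0.05. The background was high, since 47.4% of all tested genes were called, 24.0% higher and 23.4% lower in the TNF-Tg lungs. Of the 10 genes, 6 were called, 2 higher and 4 lower, which is not far from that background. The median log2 fold change was -0.58 over the 10 genes and 0.03 over all tested genes. For 6 of the 10 genes the 3 TNF-Tg lungs lay all above or all below the 3 WT lungs, as for 58.7% of all tested genes. Where a call also needed an absolute log2 fold change of 1 or more, 3 of the 10 genes were called, against 22.5% of all tested genes. Without TNF-Tg 1 and WT 1, the lungs that stood apart, 5 of the 10 genes were called, with Fmod lost (adjusted p = 0.0709), and 31.2% of all genes tested in that fit. Lungs are whole tissue, in which fewer cells of a type and less RNA per cell cannot be told apart.

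**Figure D1:**
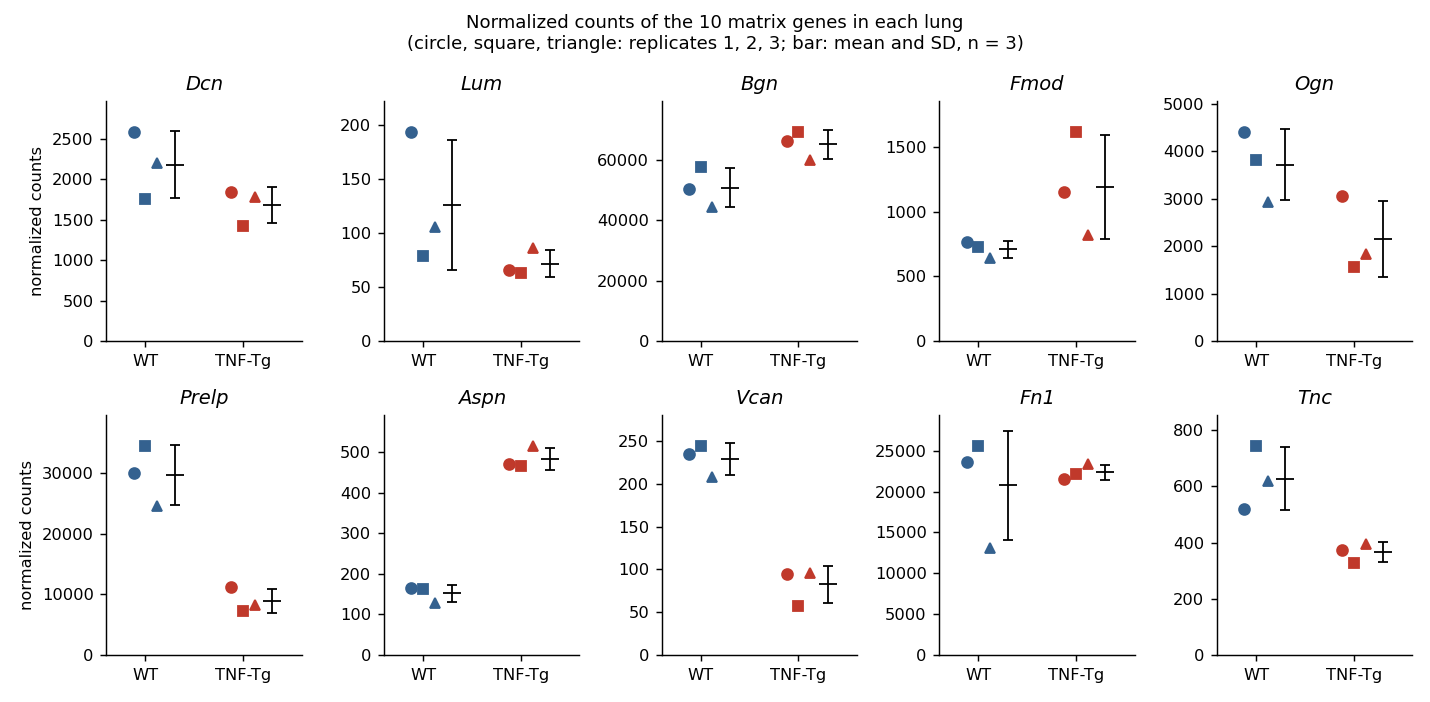
Normalized counts of each of the 10 genes (vertical axis, a scale from 0 for each gene) in the 3 WT and 3 TNF-Tg lungs, with each lung a point and the bars giving mean and SD (n = 3). Prelp, Vcan and Tnc sit lower in every TNF-Tg lung than in any WT lung, Aspn, Fmod and Bgn sit higher in every TNF-Tg lung, and the other 4 genes overlap.

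Among the class I SLRPs, the group of decorin, biglycan and asporin, the genes did not move together. Asporin, which inhibits the binding of growth factors of the TGF-β family, had 472, 465 and 515 normalized counts in the TNF-Tg lungs and 165, 162 and 128 in the WT lungs. Each TNF-Tg lung was far above every WT lung, and the spread within a group was small beside the gap. Aspn rose 3.19-fold (95% interval 2.52 to 4.04), a log2 fold change of 1.67 ± 0.15 (SE, adjusted p = 7.35e-05). This call held in all 16 alternative fits, with log2 fold changes from 1.56 to 1.72. Biglycan, a chondroitin or dermatan sulfate carrier that is also released as a signalling molecule, had 66479, 69265 and 59959 normalized counts in the TNF-Tg lungs and 50446, 57608 and 44544 in the WT lungs. The groups did not overlap, although the highest WT lung and the lowest TNF-Tg lung lay close together. The log2 fold change of Bgn was 0.36 ± 0.15 (95% interval 0.00 to 0.72), which did not pass in edgeR (adjusted p = 0.0892) and did in DESeq2 (adjusted p = 0.0256). DESeq2 called 37.8% of its 24022 genes, and 9 of the 10 described here. Decorin, which binds collagen and sequesters growth factors, had 1839, 1426 and 1778 normalized counts in the TNF-Tg lungs and 2581, 1756 and 2198 in the WT lungs. WT 2 lay within the range of the TNF-Tg lungs. Its log2 fold change of -0.37 ± 0.16 (95% interval -0.74 to -0.01) did not pass in edgeR (adjusted p = 0.0829) but did in DESeq2 (adjusted p = 0.0373) and in edgeR without WT 2 (adjusted p = 0.0308).

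In class II, the group of prolargin, fibromodulin and lumican, Prelp fell and Fmod rose. Prolargin, which anchors basement membranes to the underlying collagen, had 11119, 7243 and 8266 normalized counts in the TNF-Tg lungs and 29988, 34450 and 24569 in the WT lungs. The highest TNF-Tg lung was less than the lowest WT lung by a wide margin. Prelp fell to 0.299 of the WT level (95% interval 0.218 to 0.411), a log2 fold change of -1.74 ± 0.20 (adjusted p = 0.000265), and the call held in all 16 alternative fits. Of the 100-base windows of its transcripts, 7.09% were shared with the overlapping gene Gm15851 on the opposite strand, which had at most 9.56 normalized counts in any lung. Fibromodulin, a keratan sulfate carrier that takes part in collagen cross-linking, had 1148, 1613 and 816 normalized counts in the TNF-Tg lungs and 764, 725 and 639 in the WT lungs. The TNF-Tg lungs were widely scattered, and the lowest of them stood just above the highest WT lung. Its log2 fold change was 0.75 ± 0.22 (95% interval 0.24 to 1.26, adjusted p = 0.0247). This call did not hold in every fit that left out 1 lung. It was lost without TNF-Tg 1 (adjusted p = 0.0613), TNF-Tg 2 (0.0698), WT 2 (0.0671) or WT 3 (0.0643). The log2 fold change was 0.47 without TNF-Tg 2, and 0.74, 0.76 and 0.67 without TNF-Tg 1, WT 2 and WT 3. Lumican, a keratan sulfate carrier best known from the cornea, was low, at 65.9, 63.1 and 85.9 normalized counts in the TNF-Tg lungs and 193, 78.6 and 106 in the WT lungs. WT 1 was the highest lung by far, and WT 2 lay within the TNF-Tg range. The log2 fold change of Lum was -0.81 ± 0.34 (95% interval -1.59 to -0.02, adjusted p = 0.0835). Without WT 1, the lung with squamous and skeletal muscle markers, it was -0.39 (adjusted p = 0.289), and without WT 2 it was -1.06 (adjusted p = 0.0343).

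Osteoglycin, a class III SLRP also called mimecan, had 3060, 1557 and 1829 normalized counts in the TNF-Tg lungs and 4408, 3827 and 2932 in the WT lungs. TNF-Tg 1 was above WT 3, so the groups overlapped, while the other 2 TNF-Tg lungs were below every WT lung. Ogn fell by 0.79 on the log2 scale (SE 0.26, 95% interval -1.38 to -0.21, adjusted p = 0.0333). The call was lost without TNF-Tg 2 (adjusted p = 0.102), TNF-Tg 3 (0.0982), WT 1 (0.0842) or WT 2 (0.0836), and with edgeR's robust dispersion (0.0581). Without TNF-Tg 1, the lung with the high share of Gm42418, the fall was deeper, with a log2 fold change of -1.17 (adjusted p = 0.00315). Both Ogn and Aspn lie within the gene Cenpp on the opposite strand, which had at most 22.4 normalized counts in any lung. The strand setting of the counting is not given in the sources used here, so reads of overlapping genes on opposite strands may not have been separated.

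**Figure D2:**
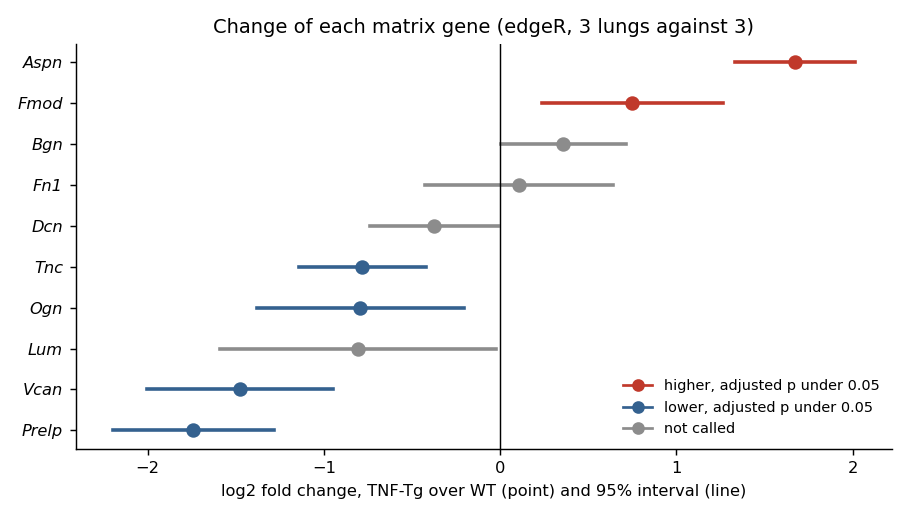
The log2 fold change of each gene, TNF-Tg against WT (horizontal axis), with points for the edgeR estimates and bars for 95% intervals (n = 3 lungs per group). Aspn at 1.67 and Prelp at -1.74 stand at the ends, and the interval of Fn1 spans 0.

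Versican fell. It had 94.9, 56.9 and 95.3 normalized counts in the TNF-Tg lungs and 235, 244 and 208 in the WT lungs, with every TNF-Tg lung under 100 and every WT lung over 200. The log2 fold change was -1.48 ± 0.23 (adjusted p = 0.00122), a level 0.359 of that in WT (95% interval 0.250 to 0.518). All 16 alternative fits called it, with log2 fold changes from -1.62 to -1.26. Versican was the lowest of the 10 genes per length, and its counts were between 55 and 255 per lung.

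The pair of large adhesive glycoproteins differed from each other. Fibronectin had 21533, 22202 and 23367 normalized counts in the TNF-Tg lungs and 23556, 25577 and 13098 in the WT lungs. The 3 TNF-Tg lungs were close together and lay inside the range of the WT lungs, of which WT 3 was far below the others. The log2 fold change of Fn1 was 0.11 ± 0.23 (95% interval -0.42 to 0.64, adjusted p = 0.725), and none of the 16 alternative fits called it (lowest adjusted p = 0.389). Without WT 3 it was -0.14. Tenascin C had 373, 326 and 396 normalized counts in the TNF-Tg lungs and 521, 744 and 618 in the WT lungs. The groups did not overlap. Tnc fell to 0.582 of the WT level (95% interval 0.453 to 0.748), a log2 fold change of -0.78 ± 0.16 (adjusted p = 0.00442), and all 16 alternative fits called it.

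Ratios between genes within a lung do not depend on the scaling of the library. The 6 pairs were chosen as family members (Bgn over Dcn), genome neighbours, chondroitin or dermatan sulfate carriers (Vcan over Dcn) or large glycoproteins (Tnc over Fn1). The log2 ratio of counts was compared between the groups by an exact permutation test (two-sided). Its smallest possible p with 3 lungs per group is 0.1. The largest difference was in Aspn over Ogn. This log2 ratio was -2.70, -1.74 and -1.83 in the TNF-Tg lungs and -4.73, -4.56 and -4.51 in the WT lungs, a difference of 2.51 (exact permutation p = 0.1, adjusted p = 0.12). Prelp over Fmod was 3.27, 2.17 and 3.34 in the TNF-Tg lungs and 5.29, 5.57 and 5.26 in the WT lungs, a difference of -2.45 (exact permutation p = 0.1, adjusted p = 0.12). In both neighbouring pairs the TNF-Tg lungs lay wholly apart from the WT lungs. Vcan over Dcn differed by -1.14, Tnc over Fn1 by -0.94 and Bgn over Dcn by 0.73, each without overlap and each with the same exact permutation p = 0.1 and adjusted p = 0.12. The share of all gene pairs without overlap was not computed, and for single tested genes it was 58.7%. Lum over Dcn, the third neighbouring pair, overlapped between the groups and differed by -0.35 (exact permutation p = 0.3, adjusted p = 0.3). With 1 lung left out, this difference ran from -0.49 (without WT 2) to -0.12 (without WT 1).

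**Figure D3:**
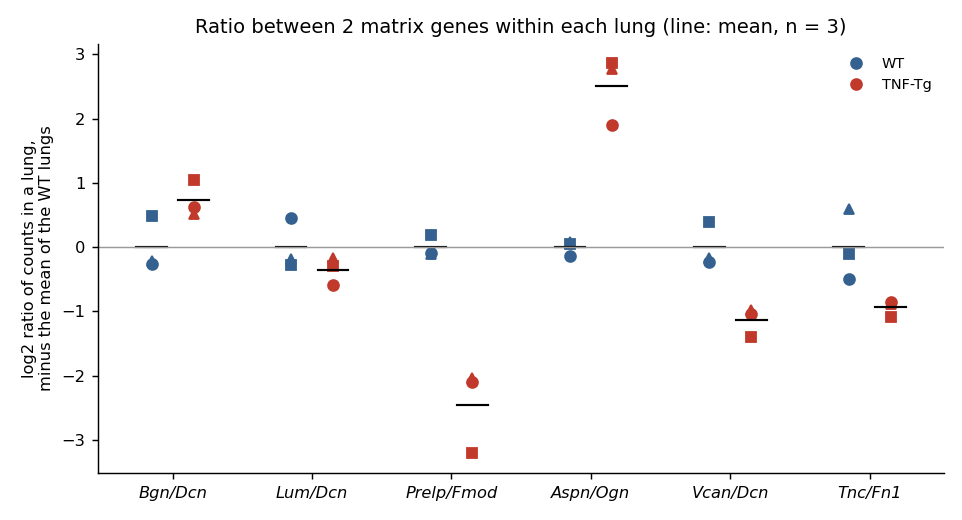
Log2 ratio of counts between the genes of each pair in each lung, minus the mean of the WT lungs (vertical axis). Points are lungs and lines are means (n = 3 per group). The 3 TNF-Tg and 3 WT lungs separate in 5 of the 6 pairs, and overlap in Lum over Dcn. Of single tested genes 58.7% separate.

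The order of the levels was compared per length, as normalized counts per kilobase of merged exons. These exons were merged over all annotated transcripts, from 1 for Lum and Ogn to 17 for Fn1. The levels of different genes therefore depend on these lengths. In the WT lungs biglycan (8340 ± 1073, SD, n = 3) and prolargin (8207 ± 1369) were the highest and overlapped. Fibronectin (1775 ± 573) and osteoglycin (1451 ± 290) followed and overlapped as well, and then came decorin (373 ± 70.7) and fibromodulin (215 ± 19.4), which did not. Tenascin C (80.8 ± 14.4) overlapped with asporin (64.5 ± 8.78) and asporin with lumican (51.4 ± 24.4), and versican was last, without overlap (15.8 ± 1.31). In the TNF-Tg lungs biglycan (10696 ± 783) stood 4.36 times above prolargin (2455 ± 556) without overlap. Fibronectin (1914 ± 79.4) and osteoglycin (838 ± 312) were in the same places as in WT. Fibromodulin (361 ± 121) and decorin (288 ± 38.2) overlapped, and asporin (206 ± 11.5) stood above tenascin C (47.0 ± 4.64), lumican (29.3 ± 5.08) and versican (5.70 ± 1.53).

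The make-up of the SLRP signal therefore differed between the groups. Of the summed normalized counts per kilobase of the 7 SLRP genes, Bgn took 67.9%, 76.1% and 72.1% in the TNF-Tg lungs and 43.3%, 44.8% and 45.9% in the WT lungs. Prelp took 19.2%, 13.4% and 16.8% in the TNF-Tg lungs and 43.4%, 45.2% and 42.7% in the WT lungs. Asporin took 1.25 to 1.61% in the TNF-Tg lungs and 0.326 to 0.367% in the WT lungs, and fibromodulin 1.81 to 3.27% against 1.04 to 1.21%. The shares of Dcn, Lum and Ogn overlapped between the groups. The sum over the 7 genes was 14872 ± 1212 per kilobase in the TNF-Tg lungs and 18701 ± 2612 in the WT lungs (SD, n = 3). Without Bgn it was 4176 ± 859 against 10361 ± 1572.

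**Figure D4:**
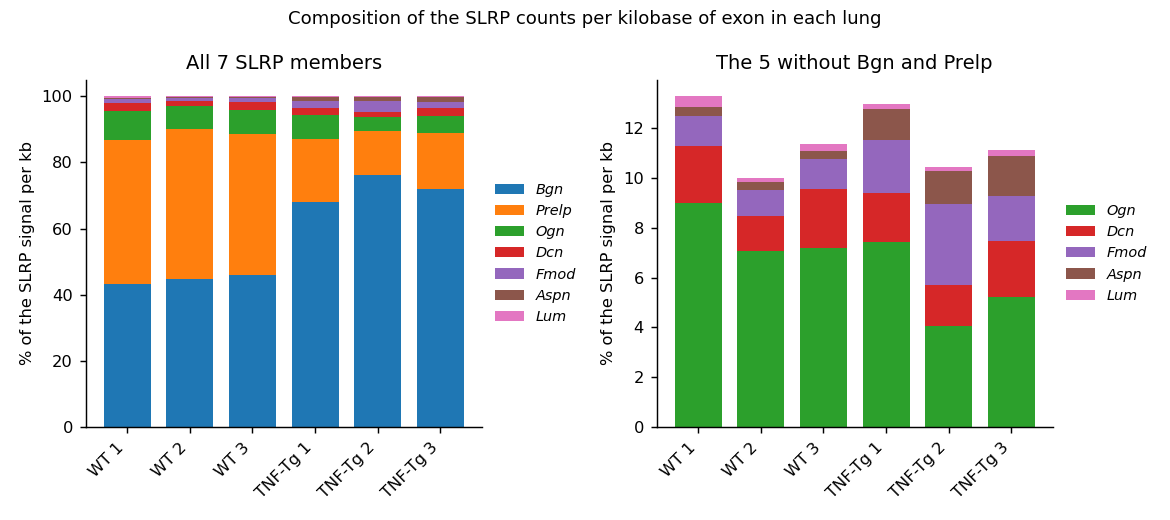
Percent of the summed SLRP counts per kilobase (vertical axis) taken by each SLRP gene in each lung, for all 7 genes and for the 5 without Bgn and Prelp. Bgn takes 67.9 to 76.1% in the TNF-Tg lungs and 43.3 to 45.9% in the WT lungs, and Prelp 13.4 to 19.2% against 42.7 to 45.2%.

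Other genes of the same matrix were read from 7 lists. Of 11 further SLRP genes, 9 were tested, 6 fell and 1 rose (median log2 fold change -1.19), read against the 47.4% of all tested genes called. Chondroadherin (Chad), which binds collagen and integrins, had 679, 391 and 285 normalized counts in the TNF-Tg lungs and 1796, 2038 and 2523 in the WT lungs (log2 fold change -2.24, adjusted p = 0.00058). Podocan (Podn) fell by 1.35 on the log2 scale. Opticin (Optc), with 2, 7 and 2 counts in the TNF-Tg lungs and 24, 28 and 34 in the WT lungs, passed the filter on low counts through the WT lungs, and its fitted log2 fold change was -2.72. Tsukushi (Tsku) was called at 0.62 (adjusted p = 0.0332), a call that was lost without WT 1 (adjusted p = 0.102) or TNF-Tg 1 (adjusted p = 0.0965) and held in 8 of the 16 alternative fits. Without WT 1, and likewise without TNF-Tg 1, 5 of the 9 tested genes were called, all lower, where 37.8% and 37.3% of all genes were called. Keratocan (Kera) and epiphycan (Epyc) were too low to be tested. Osteomodulin, between Aspn and Ogn, had 12.3 to 30.3 normalized counts in the TNF-Tg lungs and 12.4 to 15.3 in the WT lungs, and was not called (log2 fold change 0.54, adjusted p = 0.293). Without TNF-Tg 1 its log2 fold change was 0.13.

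Of 17 genes for hyaluronan and the versican family, 11 were tested, 2 rose and 5 fell (median -0.84). That is 63.6% called, against 47.4% of all tested genes. The hyaluronan-degrading protein Cemip rose by 4.20 on the log2 scale, from 8.63 to 16.0 normalized counts in the WT lungs to 177 to 291 in the TNF-Tg lungs (adjusted p = 3.95e-05). With 11, 9 and 18 counts in the WT lungs, it passed the filter on low counts through the TNF-Tg lungs. The hyaluronan receptor Cd44 rose by 1.01. Lyve1, the hyaluronan receptor of lymphatic endothelium, fell by 3.06, brevican (Bcan) by 2.43 and the hyaluronidase Tmem2 by 1.71. Acan, Ncan, Hapln1, Hapln2, Hapln4 and Has2 were too low to be tested. Of 22 tenascin and matricellular genes, all tested, 6 rose and 8 fell (median -0.25), which is 63.6% called. Tenascin X (Tnxb) had 1378, 1174 and 1382 normalized counts in the TNF-Tg lungs and 13335, 12866 and 14222 in the WT lungs, a log2 fold change of -3.36 (adjusted p = 2.72e-06). The other tenascins, named after their values were seen, were Tnn at -1.48 and Tnr at -2.02. Tnr had 6, 9 and 21 counts in the TNF-Tg lungs and 45, 33 and 90 in the WT lungs, and was not tested where 10 counts were required in every lung. Fibulin 1 (Fbln1) fell by 3.23 and Efemp1 by 1.66, while Nov rose by 1.84, thrombospondin 2 (Thbs2) by 1.64 and Comp by 1.50.

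Among 18 matrix receptors, 4 rose and 5 fell (median -0.04). These are 9 of 18 called, near the 47.4% of all tested genes. Tlr2, a receptor of free biglycan and versican, rose by 3.43 on the log2 scale, from 324 to 467 normalized counts in the WT lungs to 3918 to 4748 in the TNF-Tg lungs (adjusted p = 4.99e-06). Tlr4 rose by 0.73 and the fibronectin-binding integrin Itga4 by 1.31, while Itga8 fell by 1.78, Itga9, a tenascin C receptor, by 0.95 and Itgb3 by 0.90. The main fibronectin receptor genes Itga5 and Itgb1 were not called, with log2 fold changes of 0.07 and -0.12. For synthesis of chondroitin and dermatan sulfate chains, 4 of 21 tested genes rose and 5 fell (median -0.18), in all 42.9%, which is below the share of all tested genes called. Xylt1, which starts the chain, rose by 1.12, Dse, which makes dermatan from chondroitin, by 1.08 and Chpf2 by 0.78, while Csgalnact1 fell by 1.47, Chst3 by 0.93 and Fam20b by 0.57. For keratan sulfate, 1 of 8 genes rose and 3 fell (median -0.51), in all 4 of 8, also near that share. They were Fut8 at 0.67, Chst2 at -1.09, B4galt4 at -0.82 and Chst5 at -2.04. Chst5 had 6, 13 and 12 counts in the TNF-Tg lungs and passed the filter through the WT lungs, and where 10 counts were required in every lung it was not tested and 3 genes of this list were called. Among genes that cleave or process proteoglycans, 1 of 11 tested rose and 8 fell (median -1.11), or 81.8%. The versican-cleaving protease Adamts4 rose by 2.57, while Adamts15, which also cleaves versican, fell by 2.29, and the procollagen C-proteinase enhancers Pcolce2 and Pcolce fell by 3.20 and 1.47.

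**Figure D5:**
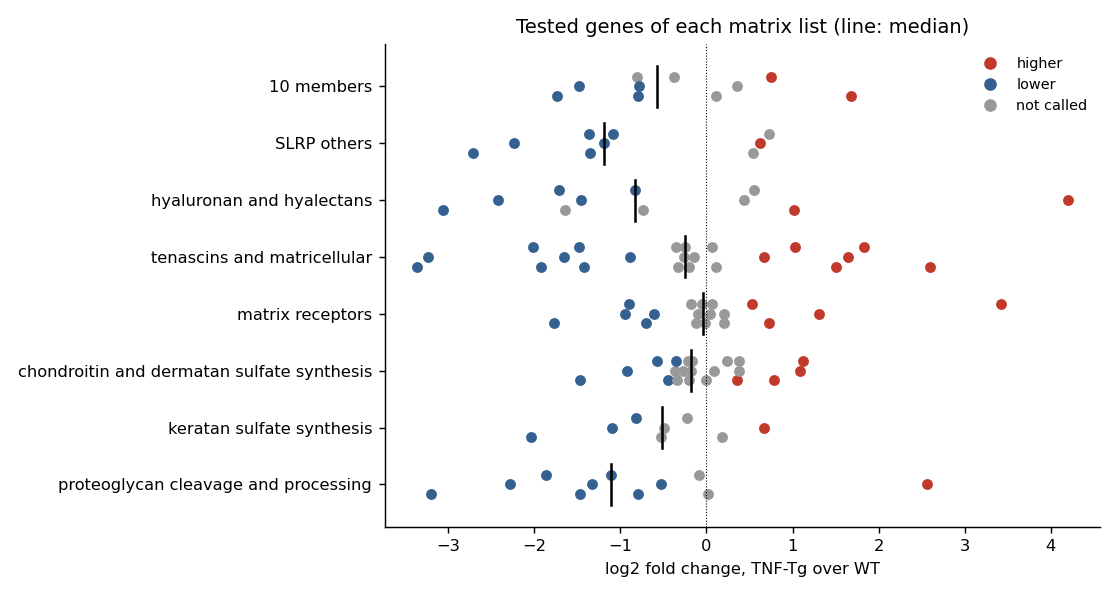
Log2 fold change, TNF-Tg against WT (edgeR), of each tested gene of the 7 matrix lists and of the 10 genes described here, with points for genes and lines for medians. The genes of each list lie on both sides of 0, with medians from -1.19 for the other SLRP genes to -0.04 for the matrix receptors.

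Many markers of the cells that make or surround this matrix moved with genotype, and their part in the results was not tested. Their counts are read against the 47.4% of all tested genes called, or 37.3% without TNF-Tg 1 and 37.8% without WT 1. Of 12 fibroblast markers, 11 fell (median -1.13), from -4.51 for Clec3b, and Dpt had a log2 fold change of -0.10 without a call. Without TNF-Tg 1, 8 of the 12 were called lower, and without WT 1, 9. The calls lost without TNF-Tg 1 were those of Pdgfra, Col1a2 and Mfap5, whose log2 fold changes there were -0.71, -0.64 and -0.43, against -0.66, -0.59 and -0.38 with all lungs. The summed level was 49748 to 51478 normalized counts in the TNF-Tg lungs and 87320 to 126892 in the WT lungs. Of 8 smooth muscle and myofibroblast markers 7 fell (summed level 17056 to 17920 against 31353 to 37759), from Cnn1 at -2.57 to Tagln, not called, at -0.23. Of 6 pericyte markers 3 fell and Kcnj8 rose (11508 to 14411 against 15526 to 19429), and of 6 mesothelial markers 3 fell, a share near that of all tested genes, the lowest being Upk3b at -1.83. All 10 macrophage and monocyte markers rose (median 2.65), and 9 of them without TNF-Tg 1 or without WT 1, where Fcgr1 was lost. They ran from Ly6c2 at 1.03 to C1qa at 4.27, and the summed level was 102825 to 125854 against 13567 to 14771. The cartilage list summed to 137 to 206 normalized counts in the TNF-Tg lungs and 185 to 207 in the WT lungs, with Ucma at 0 in every lung. Cardiac muscle markers summed to 8687 to 10737 against 32593 to 43209, and all 6 fell. Of 8 markers of lung epithelium and endothelium 6 fell (600273 to 771631 against 1156760 to 1347000), from Scgb1a1 at -1.77 to Sftpa1, not called, at 0.09. Of 5 tested adipocyte markers 1 fell, Cidec at -1.82, which was lost without TNF-Tg 1 (adjusted p = 0.0689). The adipocyte list summed to 328, 236 and 3924 normalized counts in TNF-Tg 1, 2 and 3, and to 2380 to 5112 in the WT lungs. TNF-Tg 3 thus lay within the WT range, apart from the other TNF-Tg lungs.

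Set against the mean log2 level of the 12 fibroblast markers in the same lung, all 10 differences shifted upwards by a similar amount, since the same marker mean was subtracted from each gene. Aspn stood 3.07 higher on the log2 scale in the TNF-Tg lungs, Fmod 2.09, Bgn 1.75, Fn1 1.56, Dcn 1.02, Tnc 0.62 and Ogn 0.55, each without overlap between the groups. How many of all tested genes separate on this measure was not computed. Prelp differed by -0.36, Vcan by -0.12 and Lum by 0.67, and the groups overlapped in these 3 genes. With a core of 4 fibroblast markers in place of 12, the values were 2.73 for Aspn, 1.41 for Bgn, 1.75 for Fmod, 1.22 for Fn1, 0.68 for Dcn, 0.33 for Lum, 0.28 for Tnc, 0.22 for Ogn, -0.46 for Vcan and -0.70 for Prelp. Without TNF-Tg 1 the value of Ogn against the 12 markers was 0.29. That of Lum was 0.30 without WT 2 and 0.98 without WT 1. The fall of the fibroblast markers differed widely from gene to gene, so these values depend on the markers chosen.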

How the data were processed

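Bulk RNA-sequencing of 6 whole mouse lungs was analysed. The authors made stranded poly(A) libraries with single-end reads of 100 bases, and per the labels' processing notes used Trimmomatic (0.36), STAR (2.5.2b), featureCounts and build GRCm38.p5. They deposited raw counts, whole reads per gene symbol without normalization. Counting settings are not given in the sources used here. The other assays of the study were not analysed here.

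Counts were tested with edgeR (4.0.16, R 4.3.3) after filterByExpr and TMM normalization, with genotype as the only term. Adjusted p-values are Benjamini-Hochberg values over all 19199 tested genes. The SE is the absolute log2 fold change divided by the square root of F, and 95% intervals use the matching t quantile. Replicates are separate mice. Permutation tests on pair ratios are exact and two-sided, adjusted over 6 pairs, with a pseudocount of 0.5. The log2 level relative to fibroblast markers used no pseudocount. The depth limit of 3 counts covers counting error only.

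Gene models are GENCODE M21 on GRCm38 and promoter windows RefSeq. Of 198 list genes, 198 were matched, 6 by an older symbol. The genes and lists were chosen with earlier results of these data known. Named are the 10 genes, up to 3 called genes per direction and matrix list by smallest p, the extremes of each cell type list, Tnf and genes that dominate a library. Sftpc, Omd, Tnr, Tnn, Itga5, Itgb1, Pdgfra, Col1a2, Mfap5, Fcgr1 and genes that overlap the 10 were named after values were seen. The programs were tested on simulated counts. Alternatives were DESeq2 (1.42.0), limma-voom (limma 3.58.1), other scalings, filters and dispersion, the replicate block, lungs left out, and, chosen after seeing the data, the table without Gm42418 and the cell type lists without TNF-Tg 1 or WT 1.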

Additional observations from a re-analysis of the deposited data

How the results depend on the processing

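Aspn, Prelp, Vcan and Tnc kept direction and call in all 16 alternative fits. Fmod and Ogn were called in 11 each, Dcn in 3, Lum in 2 and Bgn in 1. With an absolute log2 fold change of at least 1 required, 3 of the 10 genes, 3 matrix receptors, 3 genes of chondroitin and dermatan sulfate synthesis, 2 of keratan sulfate synthesis and 4320 genes overall were called. Over the fits that omitted a single lung, the log2 fold change of Fn1 ran from -0.14 to 0.28, the lowest without WT 3, and Vcan relative to the fibroblast markers from -0.23 to 0.0879, the highest without TNF-Tg 2. The number of the 10 genes called then ran from 4 to 6, and the share of all tested genes called from 37.3 to 46.6%. With 4 fibroblast markers the relative values were 1.41 for Bgn, -0.70 for Prelp, 2.73 for Aspn, 1.22 for Fn1 and 0.28 for Tnc. The causes were not tested. The replicate numbers did not pair the lungs, since deviations of same-numbered lungs correlated at -0.15, -0.00 and -0.24. With the replicate block 7 of the 10 genes and 7686 genes overall (40.0%) were called, and Dcn had an adjusted p = 0.0337 in edgeR. Of the 6 lungs, none correlated best with its own number. Depth limits Lum and Vcan most among the 10 genes, with 50 to 255 counts per lung.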
